A study of Mus musculus with 63 samples.

Results

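The 8 genes described here, Gsx2, Dlx1, Dlx2, Dlx5, Dlx6, Lhx6, Gad1 and Gad2, were chosen by name as genes of the GABAergic interneuron lineage, from the 23078 genes of the deposited table. Each symbol matched 1 row, and all 8 passed the low-value filter (at least 1 TPM in at least 3 libraries), as did 15231 genes in all. TPM is a level scaled for transcript length and library total, so levels of different genes can be set side by side.

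In the embryonic forebrain, cortical GABAergic interneurons arise in the ventral telencephalon, in the ganglionic eminences, and migrate from there into the dorsal cortex, whose own progenitors make glutamatergic neurons. Gsx2 is a homeobox factor of ventral progenitors and lies upstream of the distal-less factors Dlx1, Dlx2, Dlx5 and Dlx6. The Dlx factors act in ventral progenitors and young interneurons, Lhx6 is a LIM homeobox factor of interneurons that leave the medial eminence, and Gad1 and Gad2 encode the GABA-synthesising enzymes GAD67 and GAD65.

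The libraries came from GFP-positive cells sorted from micro-dissected dorsal cortex of Ski knock-out C57Bl/6 mouse embryos. Newborn neurons (NBN) of E15.5 to E18.5 gave 13 libraries, neural stem cells (NSC) of E11.5 to E18.5 gave 26 and basal progenitors (BP) of E12.5 to E18.5 gave 24, which makes 63 libraries in 19 groups of 2 to 6. NSC carried the Hes5::GFP reporter, and NBN and BP the Tbr2::GFP reporter, so that NSC differ from the other cells in transgenic line as well as in cell type. All groups carry the Ski deletion, and no Ski wild type library was analysed here. Ski itself lay between 17.2 and 53.1 TPM over the 63 libraries, which says nothing of the deleted part of the gene. A sort by GFP takes every cell that holds the protein, and in bulk RNA more cells of a type and more RNA per cell cannot be told apart. The labels do not say whether replicates came from separate embryos, so p-values measure the spread between these libraries.

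Hes5, whose promoter drives the NSC reporter, was highest in NSC: it ranged from 1.02 to 6.30 TPM in NBN, 15.51 to 215 TPM in NSC and 1.30 to 6.96 TPM in BP. Eomes (Tbr2) ranged from 6.13 to 93.5 TPM in NBN, 22.3 to 607.5 TPM in NSC and 294 to 656 TPM in BP, so it was lowest in NBN although these carry the Tbr2::GFP reporter, and NSC overlapped BP. The labels do not say how NBN and BP were separated. Every library is labelled female, yet 39 of the 63 had a summed level of at least 10 TPM over 4 Y-linked genes. NSC E12.5 replicate 1 stood apart from its dorsal cortex label. It held 6.93 TPM of the dorsal factor Emx1, against 51.0 to 212 TPM in the other 3 NSC libraries of E12.5, and 176 TPM of Dbx1 and 41.3 TPM of Nkx2-2, homeobox factors of other progenitor domains. NSC E12.5 replicate 2 came next, with 51.0 TPM of Emx1, 41.7 TPM of Dbx1, 26.5 TPM of Nkx2-2 and 102 TPM of Nkx2-1, a factor of the medial eminence. The counts of members called in NSC, their slopes that are named and the companion lists in NSC against BP are therefore also given without these 2 libraries.

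Annotation placed Dlx1 (chromosome 2, 71528113 to 71533981, plus strand) and Dlx2 (71543408 to 71546754, minus strand) side by side, 9426 bases apart in GRCm38. Dlx6 (chromosome 6, 6863334 to 6868568, plus strand) and Dlx5 (6877805 to 6882085, minus strand) lie 9236 bases apart. Of the 5396 exonic bases of Dlx1, 335 (6.21%) overlap the antisense gene Dlx1as, and the library kit does not mark strand, so these reads cannot be told apart. Gsx2 lies on chromosome 5 (75075601 to 75077893, plus strand). Lhx6 (36081953 to 36105408, minus strand), Gad1 (70553072 to 70602014, plus strand) and Gad2 (22622205 to 22693874, plus strand) all lie on chromosome 2.

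RefSeq promoter windows (GRCm38.p6) were held for 6 of the 8 genes. The 250 bases before the start are shown for 1 gene of each kind of factor, Gsx2, Dlx2 and Lhx6 (the outermost of its 3 windows), in windows that overlap no annotated exon of the same strand. They are printed 5′ to 3′ on the gene's strand, and capitals mark the letters of a motif searched for.
Gsx2 (chr5:75075351-75075600, plus strand): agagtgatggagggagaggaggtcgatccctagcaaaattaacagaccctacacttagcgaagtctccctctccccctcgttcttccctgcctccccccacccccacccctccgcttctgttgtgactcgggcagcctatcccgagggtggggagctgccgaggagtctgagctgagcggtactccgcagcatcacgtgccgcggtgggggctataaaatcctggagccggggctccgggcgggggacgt
Dlx2 (chr2:71546755-71547004, minus strand): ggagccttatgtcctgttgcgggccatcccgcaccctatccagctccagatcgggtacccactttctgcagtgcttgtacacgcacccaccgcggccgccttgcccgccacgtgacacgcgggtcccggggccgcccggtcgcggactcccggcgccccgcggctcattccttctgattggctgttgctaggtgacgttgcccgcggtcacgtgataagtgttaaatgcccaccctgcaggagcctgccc
Lhx6 (chr2:36105409-36105658, minus strand): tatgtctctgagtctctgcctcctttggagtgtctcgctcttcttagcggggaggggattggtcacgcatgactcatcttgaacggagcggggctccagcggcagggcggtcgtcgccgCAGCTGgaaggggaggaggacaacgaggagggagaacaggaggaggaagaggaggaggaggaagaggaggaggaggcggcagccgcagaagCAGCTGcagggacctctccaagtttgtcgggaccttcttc
TAATTA, the core bound by many homeodomain factors, and CAGCTG, an E-box, were searched for; each reads the same on both strands, and they do not overlap. CAGCTG stood 131 and 40 bases before the start in the Lhx6 window and in none of the other 7 windows, and TAATTA was in none of the 8. Over all 32817 windows of the table, 13.01% held CAGCTG and 4.85% held TAATTA. The windows were rich in G and C, with 63.6% in Gsx2, 66.4% in Dlx2 and 61.6% in Lhx6.

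All 8 genes were higher in NSC than in BP. On the log2(TPM + 1) scale, where changes of low genes are understated, the mean of the daily differences over E12.5 to E18.5 ran from 1.44 for Dlx6 to 4.16 for Dlx1. Calls needed an adjusted p (Benjamini-Hochberg, limma) under 0.05 together with a difference of 1 or more in either direction. All 8 of 8 were called higher, against 2.56% of the genes tested, while 0.466% were called lower. Their median was 3.08, beside 0.00 over all genes tested. The direction was the same on 7 of 7 days for each gene, and the count of 8 held when each single library was left out and without NSC E12.5 replicates 1 and 2. With a pseudocount of 5 TPM it was 6, since Gsx2 (0.96) and Dlx6 (0.89) fell short of the limit of 1.

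Gsx2, the progenitor factor, was at 0.169, 4.33 and 26.7 TPM in NSC (lowest, median and highest of 23 libraries of E12.5 to E18.5), against 0, 0.184 and 0.500 TPM in the 24 BP libraries. A single NSC library, E15.5 replicate 2 (0.169 TPM), reached into the BP range. The difference was 2.08 ± 0.16 (SE, adjusted p = 1.87e-15 in limma).

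Dlx1 was at 13.9, 55.8 and 208 TPM in NSC (lowest, median and highest), against 0.337, 2.37 and 5.55 TPM in BP. Dlx2 was at 16.2, 42.8 and 240.5 TPM in NSC, against 0.0982, 1.84 and 5.68 TPM in BP. Dlx5 was at 8.998, 20.4 and 114.9 TPM in NSC, against 0.177, 1.12 and 3.46 TPM in BP. For these 3 factors every NSC library lay above every BP library, which held for 0.394% of the genes tested (0.00657% in the other direction). The log2 differences were 4.16 ± 0.22 for Dlx1, 3.95 ± 0.22 for Dlx2 and 3.53 ± 0.20 for Dlx5 (SE), with adjusted p of at most 1.19e-20 in limma.

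Dlx6 was the least different of the 8. It was at 1.90, 8.80 and 41.4 TPM in NSC, against 1.18, 2.22 and 11.2 TPM in BP, and the ranges overlapped. The difference was 1.44 ± 0.18 (SE, adjusted p = 6.95e-09 in limma), and the libraries of a day did not overlap on 4 of 7 days. The share of all genes tested with such a count by day was not computed, so the count is only a description. One BP library, E17.5 replicate 4, held 11.2 TPM of Dlx6, against 2.08 to 3.31 TPM in the other 3 BP libraries of that day.

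Lhx6 was at 3.98, 25.8 and 51.2 TPM in NSC, against 0.542, 1.55 and 4.67 TPM in BP. Gad1 was at 4.20, 22.4 and 60.1 TPM in NSC, against 0.0658, 1.14 and 7.80 TPM in BP. Gad2 was at 3.74, 11.8 and 55.4 TPM in NSC, against 0.801, 2.11 and 5.81 TPM in BP. For each of these 3 genes the whole ranges overlapped, but the NSC and BP libraries of the same day did not on 7 of 7 days. Here too the share of all genes with such a count by day was not computed, so how unusual it is cannot be said. The log2 differences were 2.97 ± 0.18 for Lhx6, 3.19 ± 0.22 for Gad1 and 1.98 ± 0.18 for Gad2 (SE), each called in limma (adjusted p of at most 8.44e-13).

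**Figure D1:**
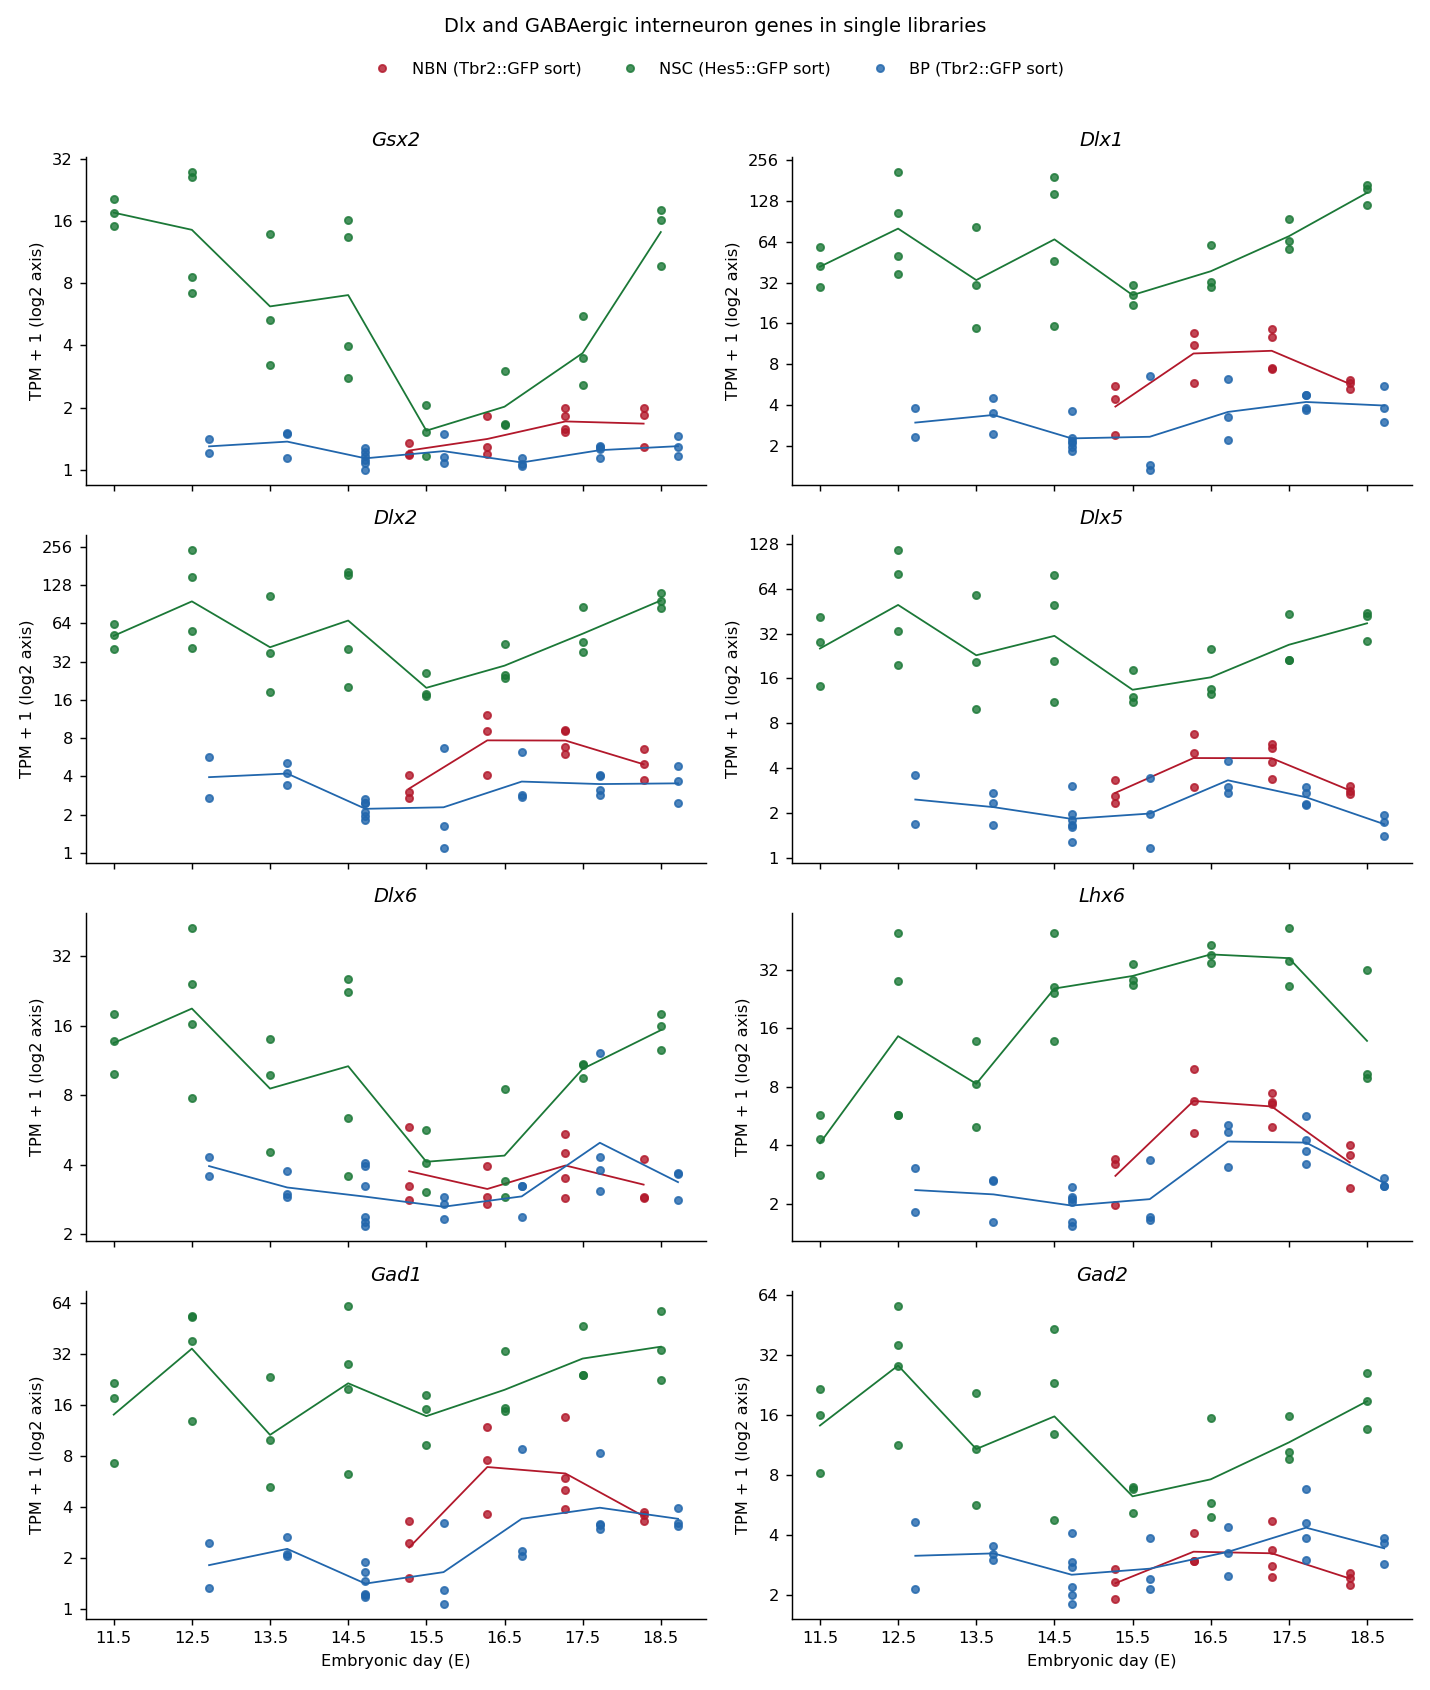
Level of each gene in every library, as TPM + 1 on a log2 axis, against embryonic day; points are libraries, lines join the means of log2(TPM + 1), and NBN, NSC and BP are set side by side within a day. NSC lie above BP for Dlx1, Dlx2 and Dlx5 in every library, Gsx2 is lowest in NSC at E15.5, and Lhx6 is highest in NSC between E14.5 and E17.5.

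NBN were lower than NSC for all 8 genes over E15.5 to E18.5. All 8 were called lower, against 6.11% of the genes tested, and 0 higher, against 2.55%, with a median of -2.50 beside -0.06 over all genes. Dlx1 was at 1.40, 5.13 and 13.6 TPM in NBN (lowest, median and highest of 13 libraries), against 20.7, 57.8 and 168 TPM in the 12 NSC libraries. Gad2 was at 0.914, 1.71 and 3.70 TPM in NBN, against 3.93, 9.03 and 25.0 TPM in NSC. Neither gene had overlapping libraries, nor had Dlx2 and Dlx5, which held in this direction for 5.65% of the genes tested and in the other for 1.56%.

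The NBN minus NSC differences on the log2 scale were -1.26 ± 0.21 for Gsx2, -3.06 ± 0.30 for Dlx1, -2.92 ± 0.29 for Dlx2 and -2.58 ± 0.26 for Dlx5 (SE). They were -1.06 ± 0.25 for Dlx6, -2.63 ± 0.24 for Lhx6, -2.42 ± 0.30 for Gad1 and -1.87 ± 0.25 for Gad2, and the highest adjusted p in limma was 0.000281, for Dlx6. Dlx6 and Gsx2 lay nearest to the log2 limit of 1, and both calls were lost without E18.5, at -0.67 for Dlx6 and -0.65 for Gsx2, and with a pseudocount of 5 TPM, at -0.64 and -0.59. The Dlx6 call was also lost without NSC E16.5 replicate 1, at -0.94, with quantile normalization, at -0.91, and with median-of-ratios scaling, at -0.99.

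Between NBN and BP, which share the reporter, none of the 8 genes was called, while 5.75% of the genes tested were called higher and 5.09% lower. At an unadjusted p under 0.05, 4 of the 8 passed in limma. The share of all genes tested at that limit was not computed, so this count is only a description. Dlx1 came nearest to a call. It was at 1.40, 5.13 and 13.6 TPM in NBN, against 0.337, 2.79 and 5.55 TPM in the 13 BP libraries of E15.5 to E18.5. Its libraries overlapped, as did those of the other 7 genes, while 6.62% of the genes tested had every NBN library higher and 7.45% every NBN library lower. Its difference of 0.99 ± 0.29 (SE, adjusted p = 0.00305 in limma) missed only the log2 limit of 1. It passed, at 1.00 to 1.18, without any 1 of BP E15.5 replicate 3, E16.5 replicate 3, E17.5 replicates 2 and 4 and E18.5 replicate 3, or NBN E15.5 replicate 2, E16.5 replicate 1, E17.5 replicates 2 and 3 and E18.5 replicate 1. Dlx2 followed with 0.80 ± 0.28 (adjusted p = 0.0135 in limma) and Dlx5 with 0.64 ± 0.26 (adjusted p = 0.0285 in limma).

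The other 5 genes gave adjusted p of 0.0630 to 0.843 in limma for NBN minus BP. Gsx2 differed by 0.30 (95% interval -0.12 to 0.73), Lhx6 by 0.51 (0.03 to 1.00) and Gad1 by 0.56 (-0.03 to 1.14). Dlx6 differed by 0.06 (-0.42 to 0.55) and Gad2 by -0.29 (-0.78 to 0.19), the only one of the 8 with a lower mean in NBN on this scale. These intervals and p-values rest on 1 spread per gene taken from all 63 libraries, NSC included. The standard deviation within days was 0.828 in NSC, 0.247 in NBN and 0.156 in BP for Gsx2. For Lhx6 it was 0.872, 0.399 and 0.367. Under other settings the adjusted p in limma went down to 0.00305 for Gsx2 and 0.00317 for Lhx6, with differences of at most 0.92 and 0.69. In NBN, Dlx1 averaged 9.22 ± 4.03 TPM at E16.5 (SD, n = 3) and 9.53 ± 3.66 TPM at E17.5 (SD, n = 4).

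**Figure D2:**
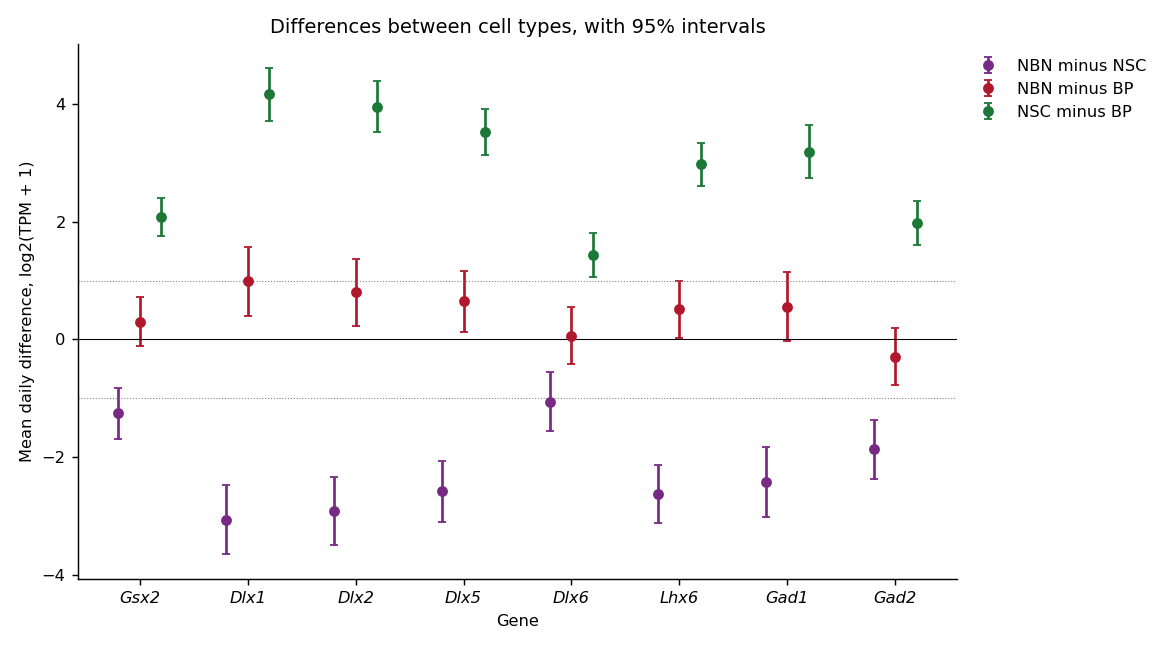
Mean of the daily differences between cell types on the log2(TPM + 1) scale for each gene, with 95% intervals from limma; dotted lines mark a change of 1 in either direction. All NBN minus NSC points lie below -1 and all NSC minus BP points above 1, while the NBN minus BP points lie between -0.29 and 0.99.

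Ordered by mean level, the 8 NSC groups took the top 8 of 19 places for Dlx1, Dlx2, Dlx5, Gad1 and Gad2. The lowest NSC group stood at place 9 for Dlx6 and 10 for Gsx2, in both cases that of E15.5, and at place 11 for Lhx6, that of E11.5. For Dlx1 the order ran from NSC E18.5 (148 TPM) over NSC E12.5 (99.4 TPM) and NSC E14.5 (98.6 TPM) down to NSC E15.5 (25.2 TPM), followed by NBN E17.5 (9.53 TPM), with BP E14.5 last (1.33 TPM). Of the 18 pairs of neighbours in each order, 16 to 18 had overlapping ranges. Neighbours in an order by mean are close by construction, so this overlap is no test of a difference.

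Within NSC the levels changed over days, but not along 1 line. The F test over day means called all 8 genes in limma (highest adjusted p 0.0407, for Gad1), against 39.1% of the genes tested. The Gad1 call was lost, with adjusted p of 0.05844 to 0.119 in limma, without any 1 of NSC E11.5 replicate 1, E12.5 replicates 1, 2 and 4, E13.5 replicates 1 and 3, E15.5 replicate 1, E17.5 replicate 1 and E18.5 replicates 1 and 2. The Dlx5 call was lost without NSC E12.5 replicate 2 (adjusted p = 0.06657 in limma) or 4 (0.0564), and without NSC E12.5 replicates 1 and 2 together the count was 6. With the spread taken from the NSC libraries alone, 3 of the 8 were called, Gsx2, Dlx6 and Lhx6. The share of all genes called with that spread is not given, so this count is only a description.

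Gsx2 was at 19.6, 16.46 and 14.2 TPM in the 3 NSC libraries of E11.5 and at 0.530, 0.169 and 1.06 TPM in those of E15.5. At E18.5 it was at 8.76, 17.1 and 15.1 TPM. These 3 days show a fall and a return, and the libraries of E15.5 overlap neither of the other days. E15.5 was the NSC day of the lowest Gsx2 mean and E11.5 that of the highest. The share of all genes without overlap between these days was not computed, so the gap is only a description of Gsx2. Its straight slope over E11.5 to E18.5 was -1.60 ± 0.33 (SE, adjusted p = 3.26e-05 in limma) and was called lower, against 8.17% of the genes tested. The slope is a poor summary of this course: without E18.5 it was -3.10, and the last day minus the first was -0.31. Without NSC E12.5 replicates 1 and 2 it was -1.63.

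Lhx6 took the opposite course. It was at 1.81, 3.31 and 4.70 TPM in the NSC libraries of E11.5, at 41.8, 33.4 and 37.0 TPM in those of E16.5 and at 30.6, 8.31 and 7.83 TPM in those of E18.5. The E11.5 libraries lay below all NSC libraries of E14.5 to E18.5, and 2 of the 3 libraries of E18.5 fell below every NSC library of E14.5 to E17.5. E11.5 was the NSC day of the lowest Lhx6 mean, so this is only a description. The slope was 2.14 ± 0.37 (SE, adjusted p = 2.04e-06 in limma) and was called higher, against 14.8% of the genes tested. It kept this call when each single library was left out and without E18.5, at 3.02, and without NSC E12.5 replicates 1 and 2, at 2.23.

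Dlx1 was at 20.7, 25.1 and 29.7 TPM in NSC of E15.5 and at 156, 168 and 119 TPM in those of E18.5, with no overlap. These were the NSC days of its lowest and highest mean, so the gap is only a description of Dlx1. Its slope of 0.92 ± 0.45 (SE, adjusted p = 0.0694 in limma) was not called. It was called without NSC E12.5 replicates 1 and 2 (1.07), without NSC E12.5 replicate 2 alone (1.11) and without NSC E13.5 replicate 2 (1.08). Without E18.5 it was -0.05. The other 5 genes had slopes with adjusted p of 0.0912 to 0.884 in limma.

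Markers of other cells also changed over days in NSC, on courses of their own. Of 5 oligodendrocyte precursor markers, 4 had a slope called higher in NSC and 0 lower. Their summed level was 74.4 to 132 TPM in NSC of E18.5, against 1.76 to 3.10 TPM at E11.5 and 1.52 to 3.16 TPM at E15.5, with 3 libraries each. Olig2, a factor of ventral progenitors and of oligodendrocyte precursors, was at 63.3, 96.0 and 143 TPM in NSC of E18.5, against 2.84, 2.00 and 2.78 TPM at E15.5. Of 8 Cajal-Retzius markers, 7 had a slope called lower and 0 higher, with summed levels of 122 to 250.3 TPM at E11.5, 71.0 to 145.3 TPM at E15.5 and 14.3 to 55.6 TPM at E18.5. Of 8 microglia markers, 7 had a slope called higher and 0 lower. Their sums were 2.87 to 5.89 TPM at E11.5 and 2.86 to 10.2 TPM at E15.5. They were 20.4 to 319 TPM at E17.5, the day of the highest mean, and 7.25 to 50.1 TPM at E18.5. The part of these cells in the courses of the 8 genes was not tested.

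In BP and NBN no member was called, neither for the slope (background 6.90% higher and 4.39% lower in BP, 3.30% and 1.44% in NBN) nor for any difference between days (16.0% in BP, 4.59% in NBN). At an unadjusted p under 0.05, 1 slope passed in BP and 0 in NBN in limma, and the F test gave 1 and 2. The share of all genes tested at that limit was not computed, so these counts are only descriptions. The Gad1 slope in BP came nearest to a call, with 1.20 ± 0.51 (SE, adjusted p = 0.0527 in limma). It was called, at 1.20 to 1.28, without any 1 of BP E15.5 replicate 3, E16.5 replicate 1 or 2, or E17.5 replicate 1 or 2. These tests too take the spread from all libraries, NSC included. With the spread of the BP libraries alone the Gad1 slope was called (adjusted p = 0.0195 in limma). The F test then called 2 members in BP, and 1 in NBN with the spread of the NBN libraries alone. The shares of all genes called with these spreads are not given, so these counts are only descriptions.

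Slopes were also compared directly. NBN minus NSC over E15.5 to E18.5, Gsx2 differed by -2.66 ± 0.58 (SE, adjusted p = 0.00157 in limma) and Dlx6 by -2.15 ± 0.67 (SE, adjusted p = 0.0304 in limma), while 4.58% of the genes tested were called lower and 0.854% higher. At an unadjusted p under 0.05, 6 of the 8 passed in limma. The share of all genes tested at that limit was not computed, so counts at it are only descriptions. The median of the 8 was -1.64, beside -0.12 over all genes, and only Lhx6 went the other way, at 1.19 ± 0.67 (SE). The calls of Gsx2 and Dlx6 were both lost without E18.5, at -0.78 and -1.25. The Dlx6 call was also lost, at -1.864 to -2.141, without any 1 of NSC E15.5 replicate 1 or 2, NSC E18.5 replicate 2, NBN E15.5 replicate 3, or NBN E18.5 replicate 1 or 3. NSC minus BP over E12.5 to E18.5, none of the 8 was called (adjusted p of 0.241 to 0.987 in limma, 0 at an unadjusted p under 0.05), against 6.86% of genes called higher and 3.66% lower.

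The members kept different proportions to each other on different days. The ratio of Lhx6 to Dlx1 in TPM was 0.0748 ± 0.0107 in NSC of E11.5, 1.16 ± 0.213 at E15.5 and 0.104 ± 0.0806 at E18.5 (SD, n = 3 each). Gsx2 to Dlx1 was 0.441 ± 0.218 at E11.5, 0.0227 ± 0.0147 at E15.5 and 0.0952 ± 0.0361 at E18.5. In both ratios the libraries of E15.5 overlapped those of neither other day, and they moved in opposite directions. E15.5 was the NSC day of the highest mean ratio of Lhx6 to Dlx1 and the lowest of Gsx2 to Dlx1, so these gaps are only descriptions.

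Other ratios were followed over the same days. Dlx2 to Dlx1 was 1.23 ± 0.14 in NSC of E11.5, 0.764 ± 0.103 at E15.5 and 0.658 ± 0.0507 at E18.5 (SD, n = 3 each). Dlx5 to Dlx1 was 0.604 ± 0.130, 0.505 ± 0.0928 and 0.250 ± 0.01675 on the same days. Dlx6 to Dlx5, the neighbours on chromosome 6, was 0.523 ± 0.134, 0.253 ± 0.0606 and 0.393 ± 0.0295, with E15.5 below both other days in every library. Gad2 to Gad1 was 1.02 ± 0.12, 0.420 ± 0.0838 and 0.523 ± 0.0720. Gad2 lay below Gad1 in every NSC library of E14.5 to E18.5, while at E11.5 the libraries lay on both sides of equality.

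**Figure D3:**
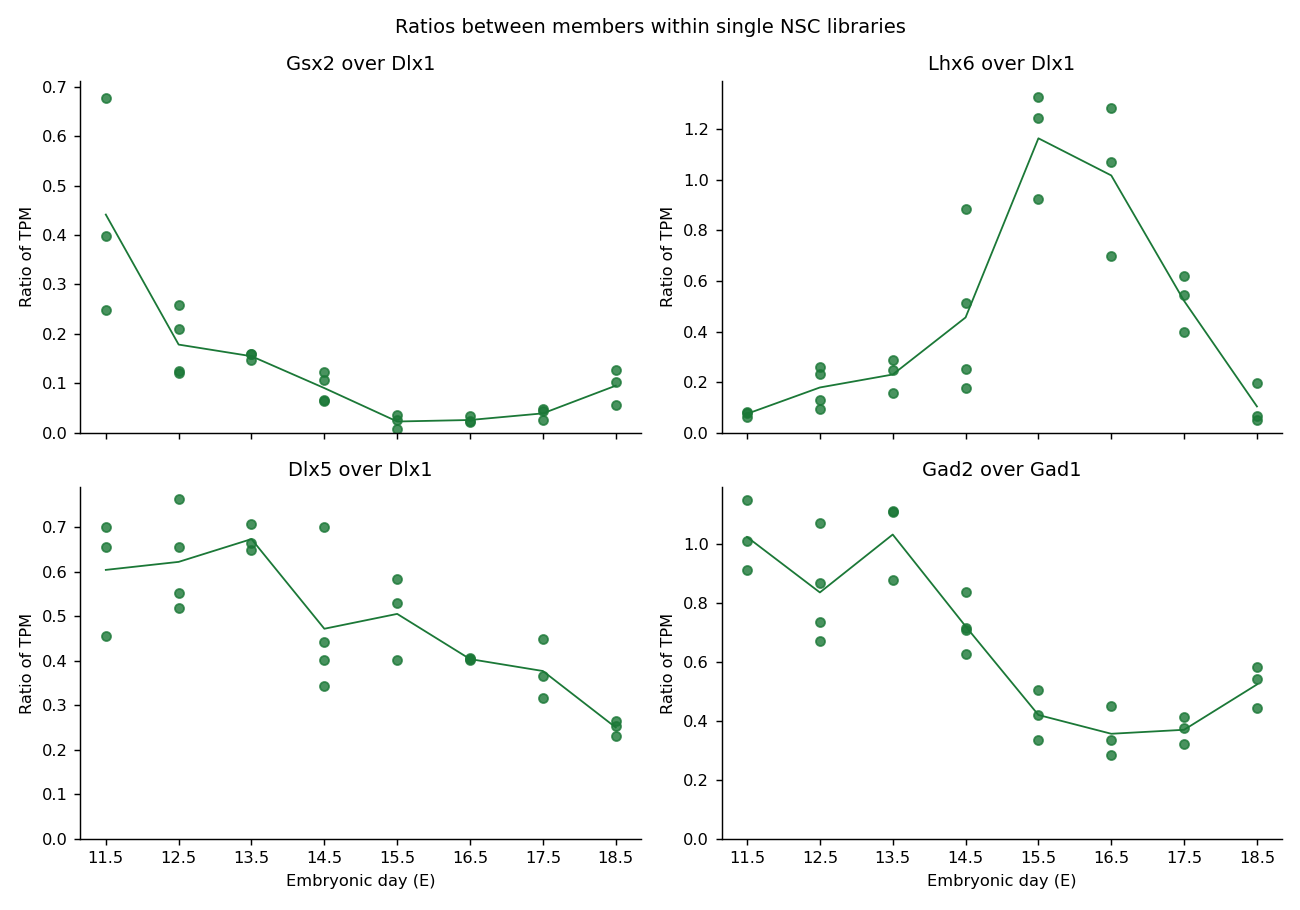
Ratios of TPM between members in the 26 NSC libraries against embryonic day; points are libraries and lines join the day means. Lhx6 over Dlx1 peaks at E15.5 (mean 1.16) where Gsx2 over Dlx1 is lowest (mean 0.0227), and Gad2 over Gad1 averages 0.835 to 1.03 from E11.5 to E13.5.

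Replicates of the same day differed widely in NSC. In the 4 NSC libraries of E12.5, Dlx1 was at 49.4, 208, 36.2 and 104 TPM. In those of E13.5 it was at 13.9, 80.7 and 29.6 TPM, and in those of E14.5 at 142, 14.4, 193 and 45.2 TPM. The highest library thus held 5.76, 5.81 and 13.4 times the lowest on these 3 days, whereas at E15.5 the 3 libraries held 20.7, 25.1 and 29.7 TPM.

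The spread within days, as a standard deviation of log2(TPM + 1), was 0.828 to 0.965 in NSC over the 8 genes, beside a median of 0.256 over all genes tested. By this spread the 8 took places 162 to 271 among 15231 genes. In NBN the spread of the members was 0.247 to 0.664 (median of all genes 0.192) and in BP 0.156 to 0.633 (median 0.208). The members had lower levels in NBN and BP, and the part of level in the spread was not tested.

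The 8 genes deviated together. In NSC E12.5 replicate 2, E13.5 replicate 2, E14.5 replicates 1 and 3, E16.5 replicate 1 and E17.5 replicate 1, all 8 lay above the mean of their day. In NSC E12.5 replicate 3, E13.5 replicate 1, E14.5 replicates 2 and 4, E15.5 replicate 1, E16.5 replicates 2 and 3 and E17.5 replicate 2, none did. Over the 26 NSC libraries, Pearson's r between deviations from the day mean was 0.604 to 0.978 in the 28 pairs of members, with a median of 0.863. The points share a library and its scaling, and r is given as a description.

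Dlx1 and Dlx2 were closest, with r = 0.978 and Spearman's rho = 0.959, followed by Gad1 and Gad2 with r = 0.970 and rho = 0.952. Gsx2 and Gad1 were least alike, with r = 0.604 and rho = 0.517. The standard deviation within days of the log2 ratio of Dlx2 to Dlx1 was 0.209, against 0.987 for log2 Dlx1 alone, so that most of the spread was common to both genes. That of Lhx6 to Dlx1 was 0.673 and that of Gsx2 to Dlx1 0.644.

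Without NSC E12.5 replicates 1 and 2 the median r of the pairs was 0.897, and without the 2 libraries farthest from the median, NSC E14.5 replicates 2 and 3, it was 0.802. Among the 13 NBN libraries the pairs had r of -0.326 to 0.823 with a median of 0.484, and among the 24 BP libraries 0.229 to 0.874 with a median of 0.564.

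**Figure D4:**
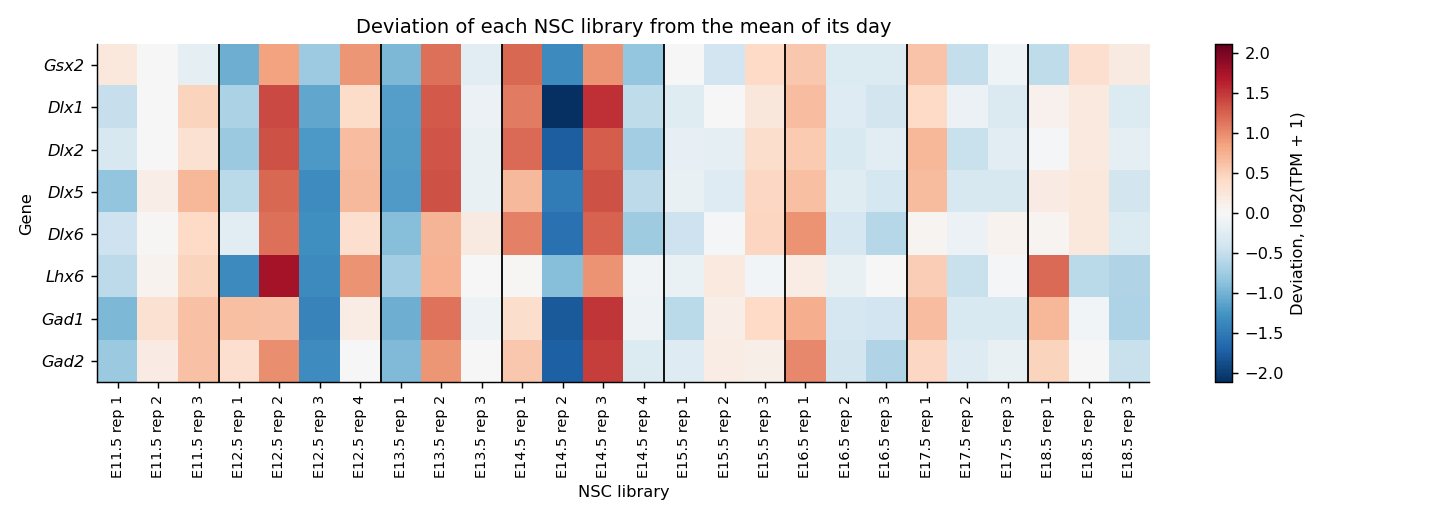
Deviation of each NSC library from the mean of its day for the 8 genes, on the log2(TPM + 1) scale; columns are libraries by day and rows are genes. Whole columns are red or blue, as in E14.5 replicates 3 and 2, with exceptions such as Gad1 and Gad2 in E12.5 replicate 1 and Lhx6 in E18.5 replicate 1.

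Companion genes of the lineage were read from lists. Of 10 ventral progenitor factors, 7 were called higher and 0 lower in NSC than in BP in limma, with a median of 1.35 beside 0.00 over all genes. Among them Sp8 differed by 1.90 ± 0.12, Olig1 by 2.34 ± 0.15 and Vax1 by 2.34 ± 0.18 (SE). Of 16 other interneuron and subpallial factors, 4 were called higher, among them Sp9 (3.01 ± 0.18), and Nr2f2 was called lower (-1.65 ± 0.28), with a list median of 0.08.

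Of 6 genes of GABA synthesis, transport and breakdown, only Slc32a1, the vesicular GABA transporter, was called higher in NSC than in BP, by 3.05 ± 0.20 (SE), and 0 were lower. It was at 0, 1.498 and 7.11 TPM in NBN (lowest, median and highest), 2.82, 11.9 and 60.7 TPM in NSC and 0.0395, 0.605 and 3.73 TPM in BP. Of 14 tested subtype and migration genes, the neuropeptide genes Npy (2.35 ± 0.21) and Sst (2.90 ± 0.31) and the neuregulin receptor gene Erbb4 (1.64 ± 0.17) were called higher. Calb2 (-1.73 ± 0.17) and Nrp2 (-1.14 ± 0.13) were called lower.

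The list of 16 striatal projection neuron genes had 1 called higher, Six3 (1.23 ± 0.23), and 0 lower. Of 15 dorsal cortex factors 1 was called higher and 2 lower in NSC than in BP, with a median of -0.49. Without NSC E12.5 replicates 1 and 2, ventral progenitor factors had 6 called higher and subtype and migration genes 4, while the counts of the other 4 of these lists did not move. Sp9 was then at 2.90, Slc32a1 at 2.91, Olig1 at 2.24 and Six3 at 1.04.

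In NBN against NSC, 0 of 10 ventral progenitor factors were called higher and 5 lower (list median -1.02). Of 16 other interneuron and subpallial factors 0 were higher and 8 lower (median -1.10), among them Sox6 (-2.73 ± 0.17). Of 15 dorsal cortex factors 0 were higher and 7 lower (median -0.93), so lower calls were not particular to the ventral lists. Over all genes tested, 2.55% were called higher and 6.11% lower. Of the GABA genes 0 were higher and 3 lower, with Slc32a1 at -2.33 ± 0.27 (SE). Of the 14 tested subtype and migration genes, 1 was called higher and 5 lower in NBN than in NSC, and 4 higher and 2 lower than in BP. The 1 called higher than in NSC was Npy, by 1.47 ± 0.27 over NSC and by 4.32 ± 0.27 over BP. Npy was at 22.4, 67.2 and 256 TPM in NBN, with 0.123, 11.4 and 68.5 TPM in NSC and 0.747, 2.53 and 5.38 TPM in BP. Npy therefore did not share the low NBN level of the 8 members.

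Among the genes whose deviations within days in NSC were most like the mean deviation of the 8 members were Sp9 (r = 0.934), Slc18a2 (0.933), Vax1 (0.929), Fam222a (0.923), Meis1 (0.917), Fgd3 (0.898), Nrxn3 (0.890), Esrrg (0.882) and Gm5607 (0.875). They were drawn from 12521 genes whose mean reached 5 TPM in some group, over the 26 NSC libraries. For Sp9, Spearman's rho was 0.845, and r was 0.954 without NSC E12.5 replicates 1 and 2 and 0.903 without the 2 libraries farthest from the median. The lowest r were those of Mrpl16 (-0.821), Rae1 (-0.761), Nadk (-0.751), Ly6e (-0.731) and Sln (-0.716).

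Sp9 and Vax1 also went with the members elsewhere, with r of 0.942 and 0.814 over the 13 NBN libraries and 0.888 and 0.672 over the 24 BP libraries. Slc18a2, the vesicular monoamine transporter gene, did not: its r was -0.00281 in NBN and 0.318 in BP. The list medians of r in NSC were 0.714 for ventral progenitor factors, 0.768 for GABA genes and 0.587 for striatal genes, 0.472 for the other interneuron and subpallial factors and 0.272 for interneuron subtype and migration genes, beside 0.135 over all candidates. They were -0.0294 for dorsal cortex factors, 0.301 for oligodendrocyte precursor markers, 0.240 for Cajal-Retzius markers, 0.200 for microglia markers and 0.0323 for erythroid markers.

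**Figure D5:**
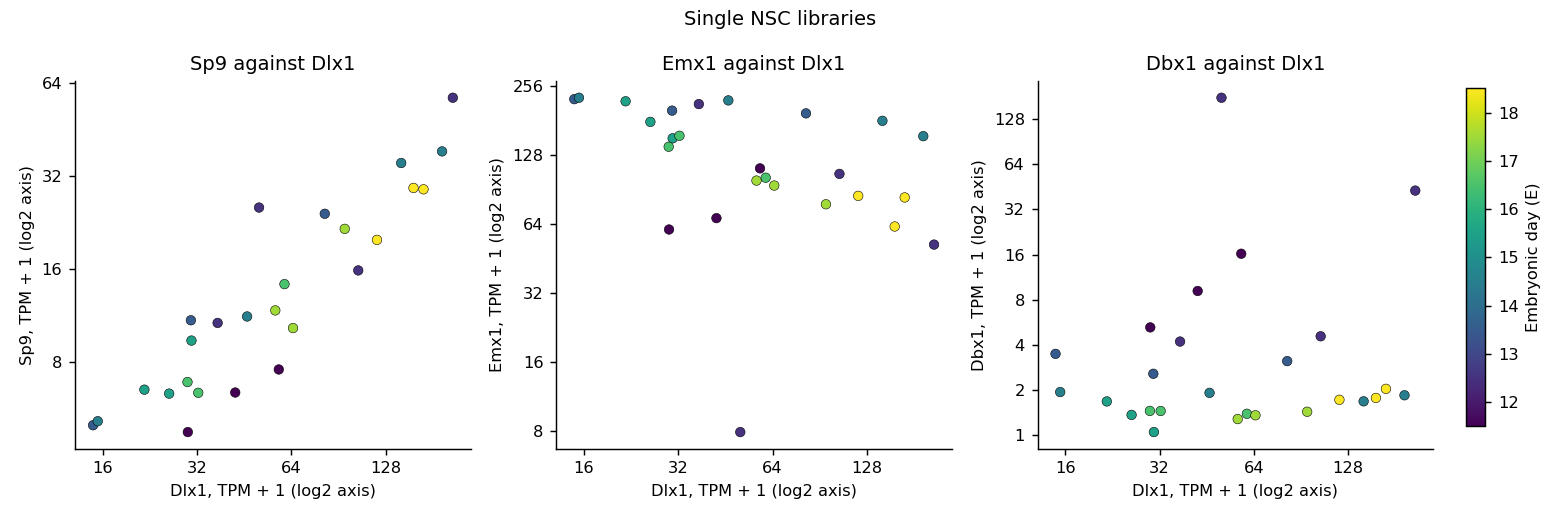
Levels of Sp9, Emx1 and Dbx1 against Dlx1 in the 26 NSC libraries, as TPM + 1 on log2 axes, coloured by embryonic day. Sp9 goes up with Dlx1, Emx1 is lowest (6.93 TPM) in the E12.5 library that also holds the most Dbx1 (176 TPM), and the library with the most Dlx1 (208 TPM) holds 41.7 TPM of Dbx1.

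The E12.5 libraries differed in what came with the members. NSC E12.5 replicate 1 had a Gad1 level of 52.5 TPM beside 49.4 TPM of Dlx1, a ratio of 1.06, against 0.248 to 0.358 in the other 3 libraries of that day. Its Lhx6 stood at 4.73 TPM and its Slc32a1 at 54.1 TPM. Replicate 2 had 51.7 TPM of Gad1 beside 208 TPM of Dlx1, with Lhx6 at 48.0 TPM and Nkx2-1 at 102 TPM. Replicate 4 had 104 TPM of Dlx1 with 26.9 TPM of Lhx6 and 36.1 TPM of Nkx2-1, and it held 951 TPM of the embryonic globin gene Hba-x, against 1.23 to 32.4 TPM in the other 3. Of the 8 members, 2 lay above the mean of the day in replicate 1, 8 in replicate 2, 0 in replicate 3 and 7 in replicate 4.

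Of the other high libraries, NSC E14.5 replicate 1 had 33.0 TPM of Nkx2-1 and 3.78 TPM of Isl1, a LIM homeobox factor of ventral telencephalic neurons, and replicate 3 had 20.4 and 17.4 TPM, against 0.83 to 2.09 TPM and 0.861 to 2.52 TPM in replicates 2 and 4. NSC E17.5 replicate 1 held 2940 TPM of Hbb-bs, against 71.1 to 79.5 TPM in the other 2. NSC E16.5 replicate 1 held 15.51 TPM of Hes5, the sort gene, against 96.8 to 114 TPM in the other 2. The part of these cells or of the sort in the level of the 8 genes was not tested.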

How the data were processed

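The authors deposited TPM per gene for each library, made with kallisto 0.43.0 on GRCm38.p2 (mm10), per the submitters' processing notes. The labels' protocols give single-read sequencing of TruSeq RNA v2 libraries, a kit that does not mark strand. TPM keeps no depth, so depth per library is unknown and no counting interval is given. Group, day and replicate came from the labels.

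Genes that reached 1 TPM in 3 or more libraries were tested on log2(TPM + 1) with limma 3.58.1 in R 4.3.3 (trend, 1 mean per cell type and day, all 63 libraries), with Benjamini-Hochberg adjustment over 15231 genes. Slopes are least squares lines through day means, scaled to the full range of days. The script was tested on simulated data. Named companions are up to 3 genes of smallest adjusted p in each direction per list, and the 10 highest and 5 lowest r; 1 gene that this rule names is not reported here. Genes given per library to describe single NSC libraries, such as Emx1, Dbx1, Nkx2-1, Nkx2-2, Isl1, Olig2 and the globin genes, were chosen after their values were seen. The members and lists were chosen with earlier results of these data known. Alternatives covered pseudocounts of 0.1 and 5 TPM, filters, scaling, library weights, blocks, days and single libraries. No column was left out as belonging to other samples.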

Additional observations from a re-analysis of the deposited data

Results flagged for a closer look

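In BP of E14.5, Dlx1 stood at 2.638 TPM in replicate 1, against 0.841 to 1.279 TPM in the other 5 libraries, a gap of 0.6866 of the group's range where Dixon's limit is 0.625. In BP of E17.5, Gad1 stood at 7.349 TPM in replicate 4, against 1.944 to 2.153 TPM in the other 3 libraries, a gap of 0.9342 where the limit is 0.829. Dlx6 was high in the same library, at 11.2 TPM. In all, 40 pairs of a member and a group of at least 4 libraries were looked at and 2 stood out so, where chance gives about 1 in 20.

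The slope over E15.5 to E18.5 differed between NBN and NSC for Gsx2, by -2.663 (adjusted p = 0.00157 in limma), and for Dlx6, by -2.151 (adjusted p = 0.0304 in limma), in a test of the difference itself. Gsx2 was at 8.76 to 17.1 TPM in NSC of E18.5, and its NBN group means lay between 0.240 and 0.723 TPM on the 4 days.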

How the results depend on the processing

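Of the counts of members called, 210 of 239 values under other settings stayed within 1.5 times those reported. The shares of all genes called under these settings are not given, so the counts are only descriptions. NBN minus BP gave 3 higher with a pseudocount of 0.1 TPM and 1 with quantile normalization, median-of-ratios scaling or without E18.5, and 0 to 1 with single libraries left out. The NSC slope gave 2 higher from the last day minus the first and 3 without E12.5 or without NSC E12.5 replicates 1 and 2 (an alternative chosen after seeing the data), and 1 to 3 with single libraries left out. It gave 0 lower with a pseudocount of 5 TPM, a mean of at least 5 TPM (where Gsx2 is not tested) or the last day minus the first, and 3 without E18.5. The BP slope gave 1 higher with a pseudocount of 0.1 TPM, library weights, its own libraries only or without E12.5, and 0 to 1 with single libraries left out. NSC slope minus BP slope gave 1 lower with library weights and 2 without E18.5. NBN slope minus NSC slope gave 1 higher with library weights, and 4 lower with a pseudocount of 5 TPM, 1 with a mean of at least 5 TPM, 6 with library weights or its own libraries only and 0 without E18.5, and 1 to 2 with single libraries left out. For any difference between days, NSC gave 3 with its own libraries only and 6 to 8 with single libraries left out. BP gave 2 with a pseudocount of 0.1 TPM, 3 with library weights, 2 with its own libraries only and 0 to 1 with single libraries left out, and NBN gave 2 with library weights and 1 with its own libraries only. The cause was not tested. Some changes took both signs. Dlx6 in NBN minus BP was -0.01601 without NBN E15.5 replicate 3 and at most 0.1711 with other single libraries left out. The Dlx1 slope in NSC, 0.92 as reported, was -0.04648 without E18.5 and 1.81 from the last day minus the first. Of 34 other slopes and slope differences of members, none of them called, 21 took the opposite sign under at least 1 setting. The library weights stopped before their tolerance was reached. With the replicate block, any difference in NSC was called for 7 members and no other count changed. Same-numbered libraries deviated together (r over 0.1) in 12 of 13 pairs of NBN and BP, 7 of 21 of NSC and BP and 6 of 12 of NBN and NSC. In NBN and BP 11 of 13 correlated best with their own number, a hint from the data that these may be paired, but 1 pair was at -0.149 and the labels do not say so. With the block, NBN minus BP had 0 members called, as without it. The block held 1 effect per replicate number, shared by all days and cell types, so it does not model pairs within a day. A paired comparison was not tested. Depth is not known from TPM, and levels under 1 TPM, as for Gsx2 in NBN and BP, are compressed on this scale.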
